A study of Mus musculus with 18 samples.

Results

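Chimeric reads of a microRNA (miRNA) joined to its target were examined on 9 genes of cytokine signalling through Janus kinases in mouse thymocytes: the receptor chains Il7r, Il2rg and Il6st, the kinases Jak1 and Jak2, the transcription factors Stat3 and Stat5b, and the inhibitors Socs1 and Socs3. A read belonged to a gene when it lay on the gene's strand within its RefSeq span on GRCm38.p6. The 9 genes held 2679 of 1190995 chimeric reads (0.225%), among 16016 genes with at least 1 read. The opposite strand of the same spans held 5 reads. The reads came from miR-eCLIP. In this assay RNA is fixed with UV light to Argonaute 2 (Ago2), the partner protein of miRNAs, the complexes are pulled down with an antibody (the Ago2 IP), and each miRNA is joined to the target that lies beside it. All samples were total thymocytes of 6-week-old mice kept under specific-pathogen-free conditions, crosslinked at 254 nm. Wild type was C57BL/6, and the knockout was B6.Mirc14tm1.1Ankr, which lacks Mir181a-1 and Mir181b-1. Each genotype had 3 libraries of the Ago2 IP and 3 in which that IP was followed by selection for miR-181 (the enriched libraries), 12 in all, while 6 input samples were not analysed here. The labels do not say whether replicates came from separate animals, so p-values measure the spread between these libraries, which may be technical.

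Cytokine receptors of this type have no kinase of their own. The ligand brings receptor chains together, the attached Janus kinases phosphorylate the receptor and the Stat proteins, and Stat dimers enter the nucleus and switch on genes, among them the Socs inhibitors, which bind receptor and kinase and end the signal. In the thymus, interleukin-7 acting through Il7r, Il2rg, Jak1, Jak3 and Stat5 sustains the early precursors, and Socs1 restrains cytokine signals in the double-positive cells that make up most of the organ. A miRNA finds its targets mainly through bases 2 to 8, the seed, and miRNAs with the same seed share most of their targets.

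The mature sequences of the miRNAs on which the results turn follow, from RefSeq for GRCm38.p6, 5′ to 3′, with the seed in capitals. Of 89 miRNA names found on the 9 genes, 69 had a sequence in the table used, and the others entered no seed group. Names left out in this way include miR-30b-5p and miR-30d-5p of the miR-30 family and miR-301b-3p of the miR-130 family, so that shares of those groups count only the names with a sequence. The miR-181 family is shown because the knockout removes one of its loci and the enrichment selects it, and its 4 members share 1 seed:
miR-181a-5p: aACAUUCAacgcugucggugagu
miR-181b-5p: aACAUUCAuugcugucgguggguu
miR-181c-5p: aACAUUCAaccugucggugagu
miR-181d-5p: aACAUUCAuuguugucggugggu
The miR-17 seed group, here called the miR-20a group after its most frequent member, led on Stat3 and on sites of Jak1 and Il6st:
miR-20a-5p: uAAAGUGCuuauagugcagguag
miR-17-5p: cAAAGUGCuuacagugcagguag
miR-93-5p: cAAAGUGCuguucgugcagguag
miR-106a-5p: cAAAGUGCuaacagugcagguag
miR-20b-5p: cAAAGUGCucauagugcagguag
The seed of miR-18a-5p, made from the same precursor cluster as miR-17 and miR-20a, differs from theirs, and miR-18a-5p held a Socs1 site:
miR-18a-5p: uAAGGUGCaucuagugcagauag
The let-7 group led on Socs1 and on 1 site of Stat5b, and its most frequent members were these:
let-7a-5p: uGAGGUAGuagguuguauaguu
let-7f-5p: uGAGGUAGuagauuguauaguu
Of the next group, miR-130b-3p held an Il6st site on which no Ago2 IP read named miR-301a-3p, which has the same seed:
miR-130b-3p: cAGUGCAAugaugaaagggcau
miR-301a-3p: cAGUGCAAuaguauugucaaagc
The last 3 were frequent on Socs1, or in the whole library:
miR-30c-5p: uGUAAACAuccuacacucucagc
miR-19b-3p: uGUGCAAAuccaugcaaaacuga
miR-142a-3p: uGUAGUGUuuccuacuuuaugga

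The depth was 43983 to 117849 chimeric reads per wild-type Ago2 IP library, 52100 to 67639 per knockout one, 194628 to 293149 after enrichment in wild type, and 6832 to 19264 after enrichment in the knockout. Levels are given as reads scaled to a library of 1000000 chimeric reads (rpm), and 1 read was worth 8.49 to 22.7 rpm in the Ago2 IP libraries but 51.9 to 146 rpm in the knockout enriched ones. The deleted hairpins Mir181a-1 and Mir181b-1 had 136 to 545 reads in each wild-type Ago2 IP library and 0 in all 6 knockout libraries. All 12 thymocyte markers had reads, summing to 15399 to 18736 rpm, while B-cell, myeloid, epithelial and red-cell lists each summed to at most 68.2 rpm in any library, with Cd68, Foxn1, Krt5, Krt8 and Psmb11 at 0. Counts of knockout enriched libraries 2 and 3 differed by no more than sampling noise over 147 genes (chi-square p = 0.201), whereas the other pairs of that group differed (p = 0.00251 and 0.0201). They may be 1 library sequenced in parts. They are shown as separate samples here, and tests that rest on them are also given with the pair summed.

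On GRCm38.p6, the receptor genes span 15:9506159-9529941 (Il7r, minus strand), X:101264385-101268255 (Il2rg, minus) and 13:112464070-112506860 (Il6st, plus). The kinase genes span 4:101151974-101265282 (Jak1, minus) and 19:29251803-29313095 (Jak2, plus), and the Stat genes 11:100886806-100939594 (Stat3, minus) and 11:100780731-100859004 (Stat5b, minus). The inhibitor genes are short, at 16:10783808-10785536 (Socs1, minus) and 11:117966079-117970336 (Socs3, minus). Per kilobase of span, the order of the 9 genes in the wild-type Ago2 IP ran from the short inhibitor Socs1 to its relative Socs3. Socs1 stood at 147 ± 18.5 rpm per kb (SD, n = 3, as for all means below), Il2rg at 28.7 ± 13.4, Il6st at 14.3 ± 3.63, Jak1 at 9.55 ± 1.34, Stat5b at 6.62 ± 0.628, Il7r at 6.11 ± 2.76, Stat3 at 3.42 ± 0.124 and Jak2 at 1.73 ± 0.865. Socs3 had no read in this group. Il2rg and Il6st overlapped in this order, as did Stat5b and Il7r, and the other neighbours did not. The spans hold introns, which differ in length between the genes, and chimeric reads rise with the amount of transcript and with its contacts, which cannot be told apart here, nor can fewer cells of a type be told from less RNA per cell.

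Il7r, the interleukin-7 receptor alpha chain, had 26, 7 and 5 reads in wild-type libraries of the Ago2 IP and 15, 17 and 11 in the knockout. In rpm these were 145 ± 65.6 against 236 ± 22.0. The groups overlapped, since wild-type library 1 reached 221 rpm and the lowest knockout library stood at 211. The wild-type enriched libraries had 31, 49 and 31 reads (153 ± 44.1 rpm) and the knockout enriched libraries 3, 6 and 4. miR-181 names made up 25.8% ± 13.1 of its wild-type Ago2 IP reads and 0 of 43 knockout reads. miR-142a-3p, the most frequent miRNA of the libraries, was also the most frequent here, with 37 of 81 Ago2 IP reads.

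Il2rg, the common gamma chain shared by the receptors for interleukins 2, 4, 7, 9, 15 and 21, had 19, 4 and 5 reads in wild type and 12, 8 and 13 in the knockout. The means were 111 ± 51.7 and 188 ± 66.1 rpm, with overlap. After enrichment 5, 9 and 4 reads remained in wild type and 2, 2 and 0 in the knockout. miR-181 names took 2 of its 28 wild-type Ago2 IP reads. Its only site with 10 reads or more (X:101266288-101266340, minus strand) held 10 Ago2 IP reads and no enriched read, of which 4 named miR-30c-5p, 2 miR-30b-5p and 1 miR-30e-5p, all of the miR-30 family.

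Il6st, or gp130, the signalling chain of the interleukin-6 family of receptors, was the receptor with most reads. Wild-type Ago2 IP libraries had 68, 54 and 21 reads and knockout ones 53, 54 and 46, at 612 ± 155 and 851 ± 46.0 rpm. The lowest knockout library stood at 798 rpm and the highest wild-type one at 782, on a scale whose total includes miR-181 reads. Enriched libraries had 102, 84 and 54 reads in wild type and 4, 14 and 1 in the knockout. The miR-181 share was 14.2% ± 4.51 in the wild-type Ago2 IP, below the share of the whole library in each of the 3 libraries, and 0 of 153 reads in the knockout.

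Jak1, the kinase used by most of these receptors, had more reads than any other of the 9 genes, 882 in all. Its Ago2 IP libraries had 133, 63 and 53 reads in wild type and 77, 96 and 60 in the knockout, at 1082 ± 152 and 1279 ± 134 rpm, with overlap. After enrichment it had 133, 137 and 110 reads in wild type and 10, 7 and 3 in the knockout. miR-181 names made up 23.8% ± 4.33 of wild-type Ago2 IP reads and 1 of 233 knockout reads. Jak2, which serves receptors for hormones and interferon-gamma, had 15, 10 and 2 wild-type and 8, 6 and 5 knockout Ago2 IP reads, at 106 ± 53.0 and 105 ± 23.0 rpm. Its 26, 20 and 16 wild-type enriched reads all named miR-181, as did 4 of its 27 wild-type Ago2 IP reads.

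Stat3, the main effector of gp130, was the most even gene between wild-type Ago2 IP libraries, with 22, 12 and 8 reads, or 180.8 ± 6.55 rpm. The knockout had 11, 16 and 11 reads, or 210 ± 27.8 rpm, and the lowest knockout library lay within the wild-type range. After enrichment Stat3 had 24, 24 and 11 reads in wild type and 0, 3 and 2 in the knockout. Stat5b, an effector of interleukins 2 and 7, had 55, 39 and 23 wild-type and 20, 34 and 25 knockout Ago2 IP reads, at 518 ± 49.1 and 437 ± 94.4 rpm, with overlap. Enrichment gave it 121, 85 and 77 reads in wild type and 6, 8 and 1 in the knockout. Its miR-181 share fell between genotypes from 27.9% ± 7.01 to 2.65% ± 2.51, and 2 of 79 knockout reads still named miR-181a-5p.

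Socs1, an inhibitor that blocks Jak kinases, had 29, 20 and 10 Ago2 IP reads in wild type and 24, 28 and 26 in the knockout. In rpm these were 246, 290 and 227 against 395, 414 and 499. The total of this scale includes the miR-181 reads that the knockout mostly lacks. None of the 78 knockout Ago2 IP reads of Socs1 named miR-181, and 0 of its 59 wild-type reads did. The latter allows a share of up to 5.08% by the floor of 3 reads (95% Wilson limit 6.11%). The wild-type enriched libraries had 17, 18 and 17 Socs1 reads, and the knockout enriched ones 1, 3 and 1. Of the 52 wild-type enriched reads, 45 named miR-181 (86.5%, 95% Wilson interval 74.7% to 93.3%). That lay below the 99.0% of all reads in those libraries, which were selected for miR-181. Socs3, an inhibitor recruited by gp130, had 9 reads in all: 2, 1 and 1 in the knockout Ago2 IP, 0, 2 and 3 in the wild-type enriched libraries and none elsewhere. Its 5 enriched reads all named miR-181a-5p, and its 4 Ago2 IP reads did not.

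**Figure D1:**
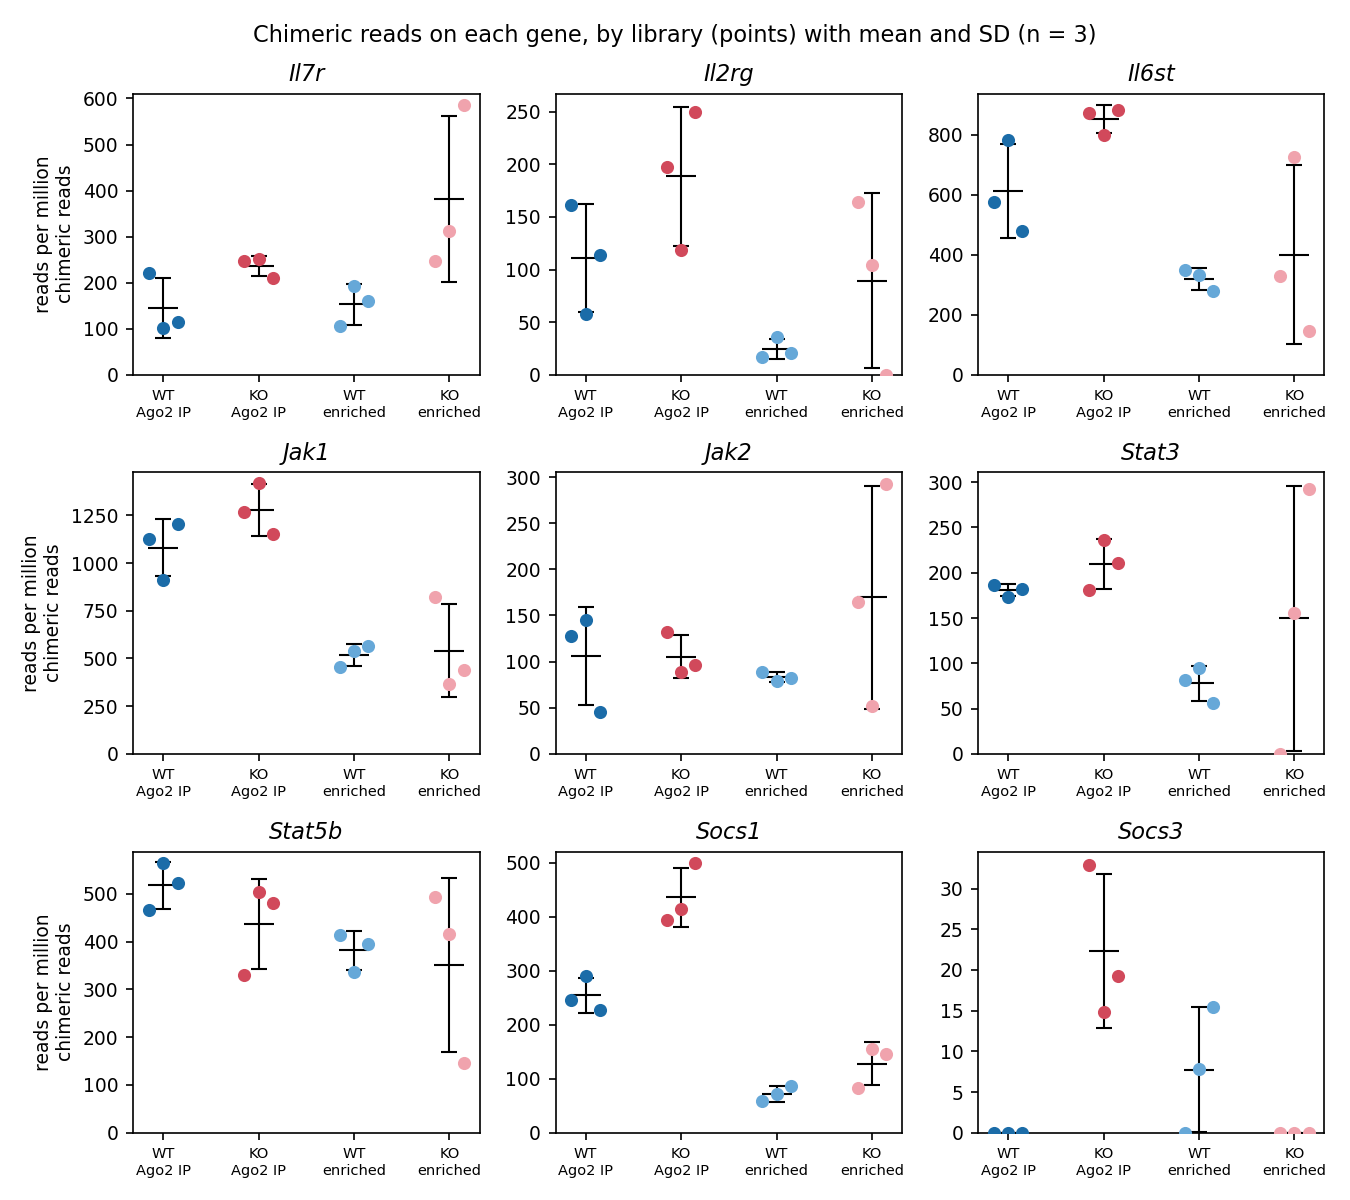
Reads scaled to 1000000 chimeric reads of the library (rpm) on each of the 9 genes (vertical axis, scaled to each gene), for the wild-type (WT) and knockout (KO) Ago2 IP and enriched libraries; points are libraries, bars the mean and SD of 3. The rpm total includes the miR-181 reads that the knockout mostly lacks. The knockout enriched libraries scatter widely because each read there is worth 51.9 to 146 rpm.

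The genotype comparison asks which contacts change when the Mir181a-1 and Mir181b-1 locus is deleted. In the Ago2 IP, Socs1 was higher in the knockout by 0.73 on the log2 scale (SE 0.25, adjusted p = 0.0485, edgeR quasi-likelihood test with Benjamini-Hochberg adjustment over 1573 genes). It was the only 1 of 7 tested genes that passed, where 9.92% of all genes tested passed in either direction and 3.31% were higher. Jak2 and Socs3 had too few reads to be tested. Il6st differed by 0.43 (SE 0.19, adjusted p = 0.169), Il2rg by 0.58 (SE 0.41), Il7r by 0.53 (SE 0.34), Jak1 by 0.24 (SE 0.16), Stat3 by 0.19 (SE 0.33) and Stat5b by -0.24 (SE 0.23), with adjusted p-values of 0.387 to 0.804 for the last 5. The median of the 7 genes was 0.43, against 0.02 over all genes.

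The Socs1 call stood close to its threshold. It was lost in edgeR when any 1 of the 6 libraries was left out (log2 differences of 0.65 to 0.80, adjusted p = 0.0592 to 0.191) and with DESeq2 (adjusted p = 0.385). In a fit of the reads of all other miRNAs alone, with libraries scaled to those reads, Socs1 differed by 0.25 (SE 0.27, adjusted p = 0.816, edgeR). Its reads were the same in both fits, since none named miR-181, while the scaling of the libraries and the other genes' reads differed. None of the 7 tested genes passed in that fit, where 2.36% of 1355 genes did and 166 had an unadjusted p under 0.05, and DESeq2 called 8 genes and none of the 7. The values ran from -0.31 for Stat5b to 0.42 for Il7r, with a median of 0.18 against 0.01 over all genes.

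After enrichment, no gene of the 5 tested differed between genotypes. Il7r differed by 0.90 (SE 0.50, adjusted p = 0.388), Stat3 by 0.44 (SE 0.73), Il6st by 0.33 (SE 0.39), Stat5b by -0.24 (SE 0.38) and Jak1 by -0.25 (SE 0.33), and the median was 0.33 against -0.13 over all genes. Of 2070 genes tested with edgeR, 5.12% passed, and 339 had an unadjusted p under 0.05, while DESeq2 called 59 genes and none of the members. The knockout enriched libraries held 86 reads of the 9 genes together, so that differences of the size of these standard errors were not detectable at this depth. With library sizes in place of TMM factors the median of all genes moved by 0.29, and Jak1 and Stat5b stood at 0.0344 and 0.0446.

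The comparison of enriched with plain Ago2 IP libraries asks what selection for miR-181 does to each gene. In wild type, 4 of 7 tested genes were lower after enrichment, relative to the other genes, and none was higher, where 15.7% of 3033 genes passed as lower, 19.4% as higher and 35.1% in either direction. Socs1 differed by -1.47 (SE 0.29, adjusted p = 6.46e-05, edgeR), from 254 ± 31.9 to 72.1 ± 14.7 rpm, and Jak1 by -0.68 (SE 0.15, adjusted p = 0.00045), from 1082 ± 152 to 520 ± 58.5 rpm. Stat3 differed by -0.81 (SE 0.31, adjusted p = 0.0385) and Il6st by -0.56 (SE 0.19, adjusted p = 0.0158). Il7r at 0.27 (SE 0.30), Stat5b at -0.04 (SE 0.18) and Jak2 at -0.09 (SE 0.35) did not pass. The Stat3 call was lost in edgeR without any 1 of wild-type Ago2 IP libraries 1, 2 or 3 (adjusted p = 0.192, 0.0963 and 0.0686) or of enriched libraries 1 or 3 (0.0510 and 0.143). The Il6st call was lost without Ago2 IP library 2 (0.242) or enriched libraries 2 or 3 (0.0627 and 0.0971). With DESeq2, Socs1 and Jak1 passed and the other 2 did not.

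In the knockout, 2 of 4 tested genes were lower after enrichment: Jak1 by -1.13 (SE 0.31, adjusted p = 0.0041, edgeR) and Socs1 by -1.54 (SE 0.57, adjusted p = 0.0403). Over 799 genes, 5.51% passed as lower and 21.2% in either direction. Il6st stood at -0.62 (SE 0.35, adjusted p = 0.227) and Stat5b at 0.00 (SE 0.42). The Socs1 call was lost with knockout enriched libraries 2 and 3 summed (adjusted p = 0.0633), without knockout enriched library 1, 2 or 3 (0.223, 0.138 and 0.0791) and with DESeq2 (0.182). The Jak1 call was lost without knockout enriched library 2 (0.169). Il6st passed in edgeR without knockout Ago2 IP library 1, 2 or 3 (adjusted p = 0.0348, 0.0295 and 0.0494), where Socs1 and Stat5b had too few reads to be tested, and without knockout enriched library 2 (0.0443).

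**Figure D2:**
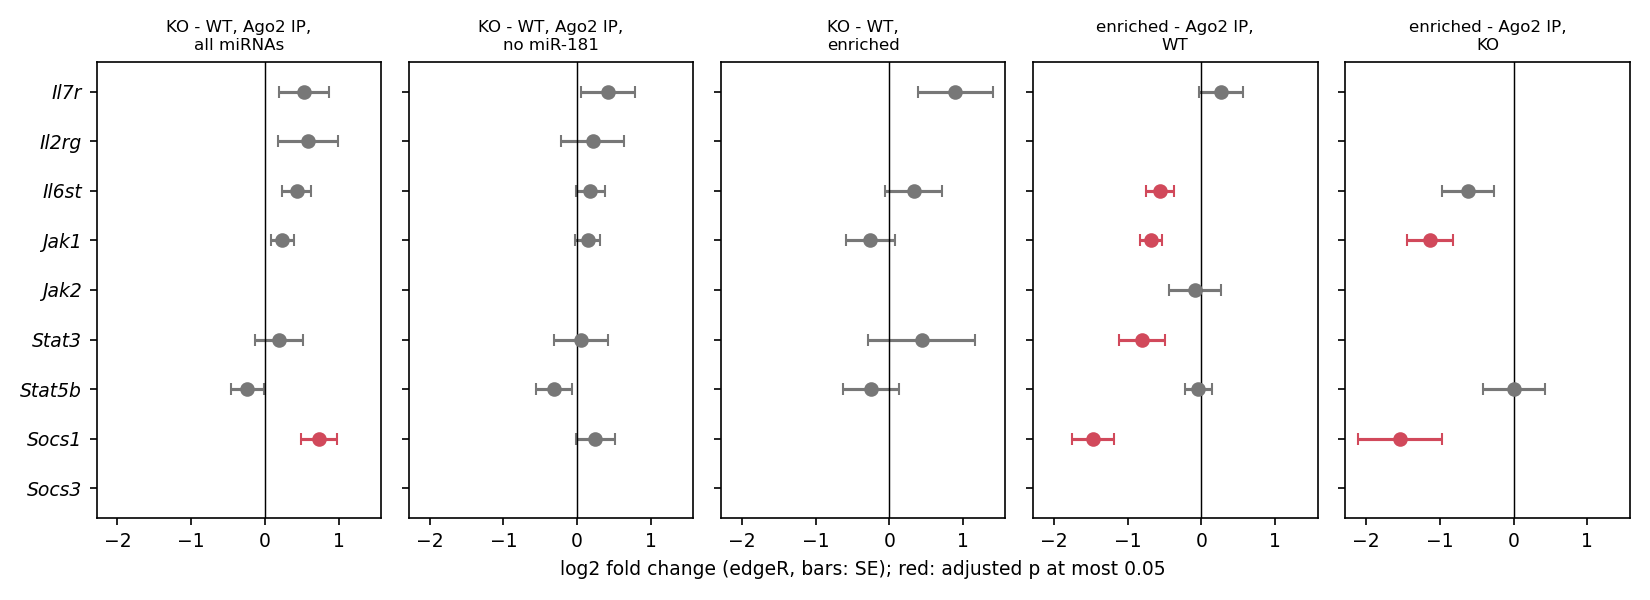
log2 fold change with its standard error (horizontal axis) for each gene that could be tested in 5 edgeR comparisons; red points had an adjusted p of at most 0.05. Socs1 is the only red point between genotypes, at 0.73, and stands at 0.25 when libraries are scaled to the reads of other miRNAs, with the same Socs1 reads; 4 genes are red below 0 in the wild-type enrichment and 2 in the knockout enrichment.

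The share of reads naming miR-181 separated the genotypes on most of the genes. Of the 6 genes with at least 5 reads in every Ago2 IP library, Il7r, Il6st, Jak1, Stat3 and Stat5b had all knockout libraries below all wild-type ones, each with an exact two-sided permutation p of 0.1, the smallest that 3 against 3 libraries allow. The same held for 85.6% of 1582 genes with that many reads. Socs1 was at 0% in all 6 libraries. Among the 1582 genes, 11 (0.695%) had no miR-181 read in any wild-type Ago2 IP library. The median share over those genes was 27.6% in wild type, with quartiles of 19.5% and 36.3%, so that Il6st, at 14.2%, lay below the lower quartile and Il7r, Jak1, Stat3 and Stat5b lay between the quartiles. Il6st, Jak1, Stat3 and Socs1 lay below the share of the whole library in 3 of 3 wild-type libraries, as did 35.2% of the 1582 genes. Il2rg and Jak2, with too few reads for the test, had mean shares of 8.42% and 11.1%.

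**Figure D3:**
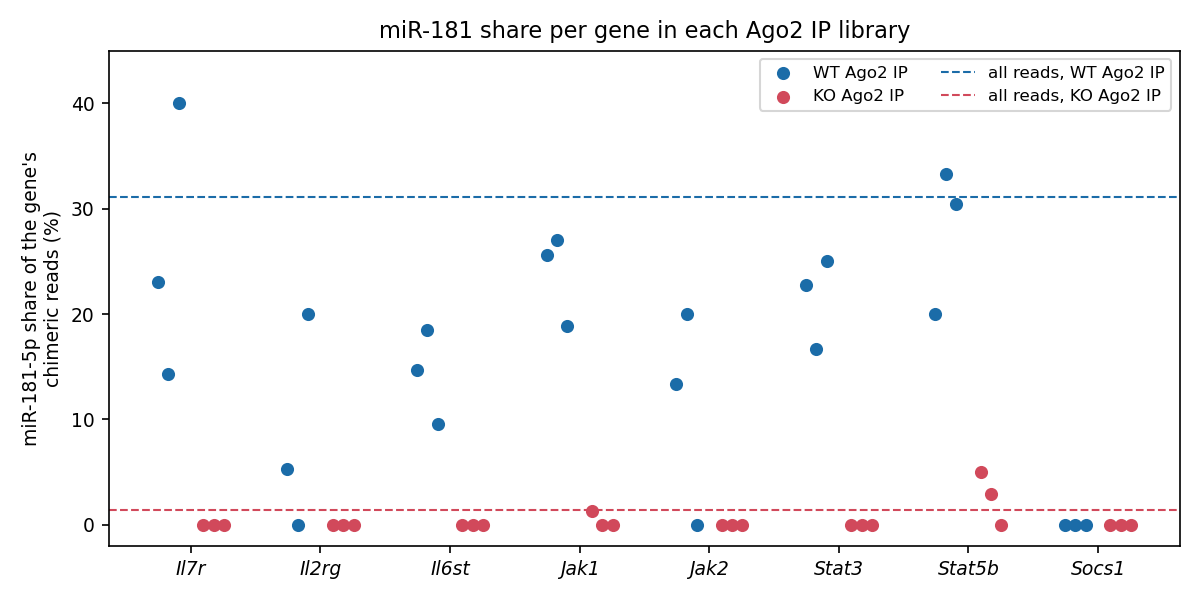
Percent of each gene's chimeric reads that name miR-181a, b, c or d-5p in the 3 wild-type (WT, blue) and 3 knockout (KO, red) Ago2 IP libraries; dashed lines give the mean over all reads, 31.1% and 1.38%. Socs1 is at 0 in every library and Socs3, with 4 Ago2 IP reads, is left out.

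Pooled over the 9 genes, the family members that made up the miR-181 reads were close to those of the library, while single genes differed. In the wild-type enriched libraries 82.4% of 1191 miR-181 reads on the genes named miR-181a-5p and 16.1% miR-181b-5p. Of all miR-181 reads there, 80.7% and 18.3% did. By gene, miR-181b-5p took 39 of 376 such reads on Jak1, 29 of 109 on Il7r and 13 of 45 on Socs1, which was not tested. In the knockout enriched libraries the shares of 44 reads were 45.5% for miR-181a-5p, 18.2% for b, 25% for c and 11.4% for d, against 45.6%, 19.3%, 22.2% and 12.8% of all miR-181 reads in those libraries. Of the 12 such reads on Stat5b, 5 named miR-181c-5p and 4 miR-181b-5p, and 4 of 10 on Jak1 named miR-181d-5p. Mature miR-181a-5p and b-5p are also made from a second locus that the knockout keeps, and their reads do not say from which locus they came.

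Among the reads of miRNAs other than miR-181, the genes differed in the seed groups they held. The shares below pool the 6 Ago2 IP libraries and are set against the reads of all other genes in the same libraries. They are descriptions chosen after the values were seen. An exact sign-flip test over the 6 libraries was run on 70 pairs of gene and group, and 32 reached its smallest p, 0.03125. In 15 of these 32 the gene had reads of the group. The p-values are not used below, since the pairs named were picked by their values. Beside each share stands the percentage of 1275 genes, those with at least 5 such reads in every library, whose share lay on the same side in 6 of 6 libraries. To lie higher in 6 of 6, a gene needs at least 1 read of the group in every library. For the rare miR-301a, miR-19b and miR-30c groups the percentages therefore also reflect the genes' read numbers, which were not matched. On Stat3 the miR-20a group made up 46.5% of 71 reads (95% Wilson interval 35.4% to 57.96%), against 14.6% elsewhere. On Il6st it made up 25.2% of 274 reads and on Jak1 24.5% of 420. All 3 genes exceeded the rest of the library in 6 of 6 libraries, as did 12% of the 1275 genes. On Stat5b and Socs1 the miR-20a group was low, at 6.75% and 2.92%, below the rest in 6 of 6 libraries, as in 19.1% of genes. Stat3 had few let-7 reads, 5 of 71.

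Il6st also carried the seed group of miR-301a and miR-130b, at 13.1% of its reads (9.64% to 17.7%) against 0.636% elsewhere. It was higher in 6 of 6 libraries, as in 3 of the 1275 genes (0.235%). Of these 36 reads, 12 came from wild type and 24 from the knockout, and miR-130b-3p accounted for 35 of the gene's 296 Ago2 IP reads. let-7 was low on Il6st, at 6.93% against 16.7%, and lower in 6 of 6 libraries, as in 16.2% of genes.

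Stat5b and Socs1 held let-7 at 30.7% of 163 and 31.4% of 137 reads, against 16.6% to 16.7% elsewhere, higher in 6 of 6 libraries for both and for 8.63% of genes. On Socs1 the miR-30c group made up 13.1% of the reads against 2.49% elsewhere, without a further 7 reads of miR-30b-5p and 3 of miR-30d-5p, and the miR-19b group 13.1% against 1.52%, each higher in 6 of 6 libraries, as in 1.49% and 0.627% of genes. The seed group of miR-18a-5p made up 10.2% against 1.41%, higher in 5 of 6 libraries, so that no background of 6 of 6 applies. miR-142a-3p made up 8.03% of Socs1 reads (4.54% to 13.8%) against 40.2% elsewhere, lower in 6 of 6 libraries, as in 15.6% of genes. Jak1 was also lower for miR-142a-3p in 6 of 6, at 31.7%. Il7r had 3 reads of other miRNAs in wild-type library 3, so that its 51.4% of miR-142a-3p and 16.7% of the miR-16 group, of 72 reads, were not set against the background.

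**Figure D4:**
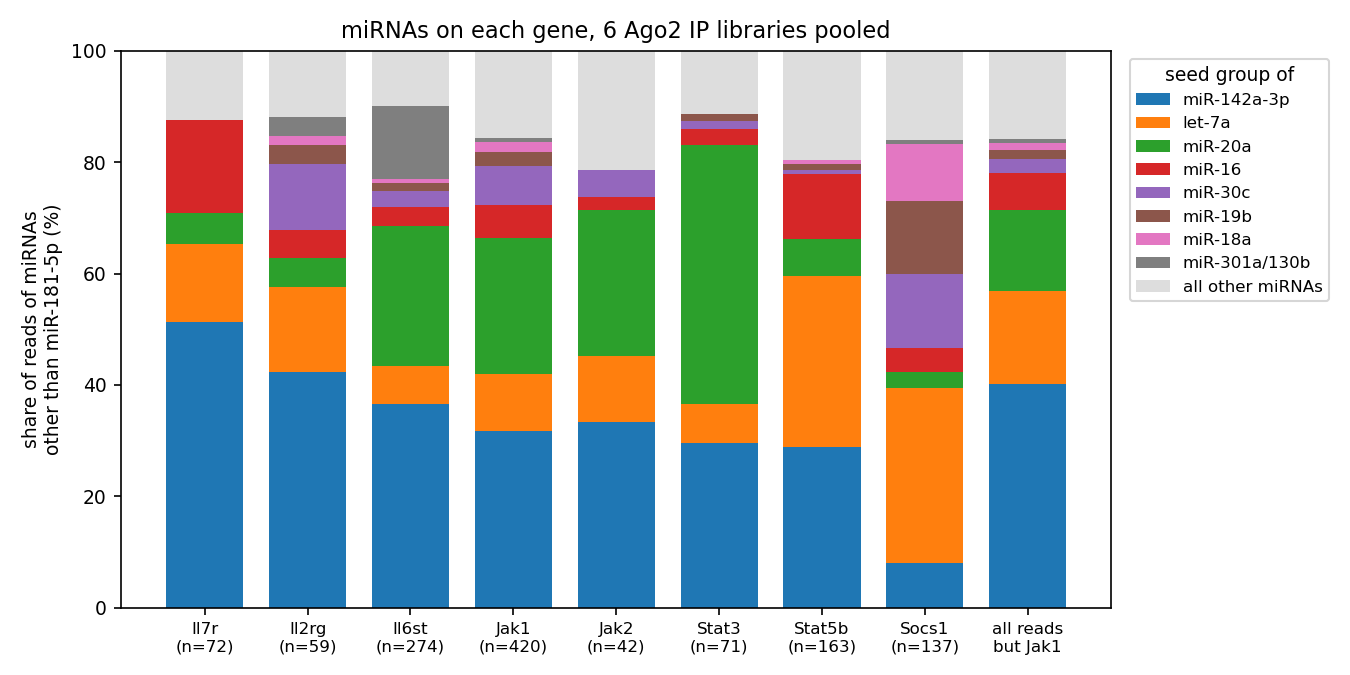
Share of the chimeric reads of miRNAs other than miR-181-5p (vertical axis, percent) by seed group, over the 6 Ago2 IP libraries pooled; n is the gene's number of such reads, and the last bar holds all reads outside Jak1. Stat3 has 46.5% of the miR-20a group, Il6st 13.1% of the miR-301a and miR-130b group, and Socs1 8.03% of miR-142a-3p.

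Reads on the same strand were joined into a site when the gap between neighbours was 20 nt or less, and distances are from the 3′ end of the gene span. Exon, intron and untranslated-region classes were not used here. Within the Ago2 IP libraries, the last 3000 nt of Jak1, 2.65% of its span, held 172 of 420 reads of other miRNAs (41.0%) and 14 of 62 miR-181 reads (22.6%). On Il6st the window held 70.4% of 274 and 50% of 22 reads, and on Stat3 40.8% of 71 and 1 of 9. On Il7r the shares were equal, at 40 of 72 and 5 of 9 reads, and on Stat5b they were 7.36% of 163 and 2 of 33. Il2rg and Jak2 had 2 and 4 miR-181 reads in these libraries, of which 1 each lay in the window. In the enriched libraries 14.2% of 386 miR-181 reads on Jak1, 49.4% of 245 on Il6st, 23.3% of 60 on Stat3, 33.9% of 118 on Il7r, 8.56% of 292 on Stat5b, 7.94% of 63 on Jak2 and 18 of 20 on Il2rg lay there. These shares pool the libraries of an assay and are given with no test.

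The site with most reads of all 9 genes lay on Jak1 (4:101152366-101152546, minus strand), 392 to 572 nt from the 3′ end, with 183 reads. Its Ago2 IP reads numbered 27, 18 and 11 in wild type and 28, 40 and 27 in the knockout, at 247 ± 16.0 and 523 ± 65.5 rpm. The total of this scale includes miR-181 reads. The miR-20a group shown above made up 72 of the site's 151 Ago2 IP reads (47.7%, 39.9% to 55.6%) and the miR-30c group 18. miR-181 named 10 of 56 wild-type reads and 0 of 95 knockout reads. The site was higher in the knockout by 0.96 on the log2 scale (SE 0.29, adjusted p = 0.0048, edgeR over 251 sites). It was 1 of 3 member sites tested, and 36.3% of the 251 sites passed, 10.8% as higher. The call was lost without wild-type library 1 (0.80, adjusted p = 0.0890), with DESeq2 (0.90, adjusted p = 0.0562) and in an added fit of other miRNAs alone (0.85, adjusted p = 0.0912, 195 sites tested, 16 passed).

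The other tested sites lay on Il6st and Socs1. The Il6st site (13:112504414-112504679, plus strand, 2181 to 2446 nt from the 3′ end) had 7, 11 and 6 wild-type and 12, 13 and 11 knockout reads and differed by 0.77 (SE 0.40, adjusted p = 0.127, edgeR). miR-130b-3p, whose sequence stands above, made up 29 of its 60 Ago2 IP reads. The Socs1 site (16:10783821-10784015, minus strand) lay 13 to 207 nt from the 3′ end and held 91 of the gene's 194 reads. It had 12, 15 and 4 wild-type and 20, 13 and 10 knockout reads and differed by 0.67 (SE 0.38, adjusted p = 0.167, edgeR). The let-7 group took 28, the miR-19b group 17 and the miR-30c group 17 of its 74 Ago2 IP reads, and none named miR-181.

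At several sites most Ago2 IP reads belonged to 1 seed group. A second Il6st site (13:112505228-112505249) had 42 of 49 Ago2 IP reads of the miR-20a group, from 5 miRNAs. On Stat3, 2 sites (11:100889479-100889545 and 11:100888743-100888756, minus strand) had 16 of 17 and 8 of 8 Ago2 IP reads of that group. On Jak2, its only site with 10 reads or more (19:29268930-29268984, plus strand) had 5 of 7. A Socs1 site (16:10784665-10784774) had 8 of 9 Ago2 IP reads of miR-18a-5p. All 14 enriched reads there named miR-181, as did 99.0% of all reads in the wild-type enriched libraries. The joined site runs from 857 to 966 nt from the 3′ end, so the miR-18a-5p and miR-181 reads need not share 1 contact. A Stat5b site outside the 3 with most reads, chosen after its values were seen (11:100811549-100811589, minus strand), had 18 of 20 Ago2 IP reads of let-7. A Jak1 site chosen in the same way (4:101240987-101241046) had 15 of 16 of miR-142a-3p.

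Enriched miR-181 reads also fell on sites led by other miRNAs in the Ago2 IP, with 27 of 32 enriched reads at the Jak1 site with most reads, 10 of 16 at the miR-130b site of Il6st and 12 of 17 at the Socs1 site with most reads. In wild type alone these were 27 of 28, 9 of 10 and 12 of 15. Over all reads, miR-181 was named in 99.0% of wild-type and 71.9% of knockout enriched reads. Without selection, in the wild-type Ago2 IP, miR-181 named 10 of 56, 2 of 24 and 0 of 31 reads at these sites. In the knockout Ago2 IP it named 0 of 95, 0 of 36 and 0 of 43. Contact of miR-181 with these sites was not tested. Other sites had mostly miR-181 reads in the Ago2 IP too. The Stat5b site with most reads (11:100802660-100802783, minus strand, 21929 to 22052 nt from the 3′ end) had 8, 7 and 1 Ago2 IP reads in wild type and 0 in all 3 knockout libraries. Of those 16, 14 named miR-181, and the other 2 belonged to the miR-16 group. It had 24, 21 and 20 reads after enrichment in wild type and 0, 2 and 0 in the knockout, all naming miR-181. A Jak1 site (4:101264578-101264713, minus strand), 112604 to 112739 nt from the 3′ end and so close to the start of the gene, had 4, 3 and 1 wild-type Ago2 IP reads, 0 in the knockout, and 23, 19 and 22 in the wild-type enriched libraries. All of its 73 reads named miR-181, 71 of them miR-181a-5p. With identical reads counted once, 67 of the 83 Stat5b reads and 53 of the 73 Jak1 reads remained.

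Further miR-181 sites had few reads before enrichment. Another Jak1 site (4:101167706-101167819) had 3 wild-type Ago2 IP reads and 28 enriched reads, and 2 more Stat5b sites (11:100846013-100846080 and 11:100816432-100816517) had 2 and 0 Ago2 IP reads and 22 and 21 wild-type enriched reads. The Il7r site with most reads (15:9511125-9511192, minus strand, 4966 to 5033 nt from the 3′ end) had 24 of its 26 reads in the wild-type enriched libraries, all naming miR-181, and 2 in wild-type Ago2 IP library 1, both naming miR-142a-3p. An Il7r site near the 3′ end (15:9506336-9506427, 177 to 268 nt) had 5 wild-type and 2 knockout Ago2 IP reads, with miR-181 in 3 of the 5, and another (15:9510198-9510250) had 10 of 12 enriched reads named miR-181b-5p. No member site was tested between genotypes after enrichment, where 16.4% of 805 sites passed.

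**Figure D5:**
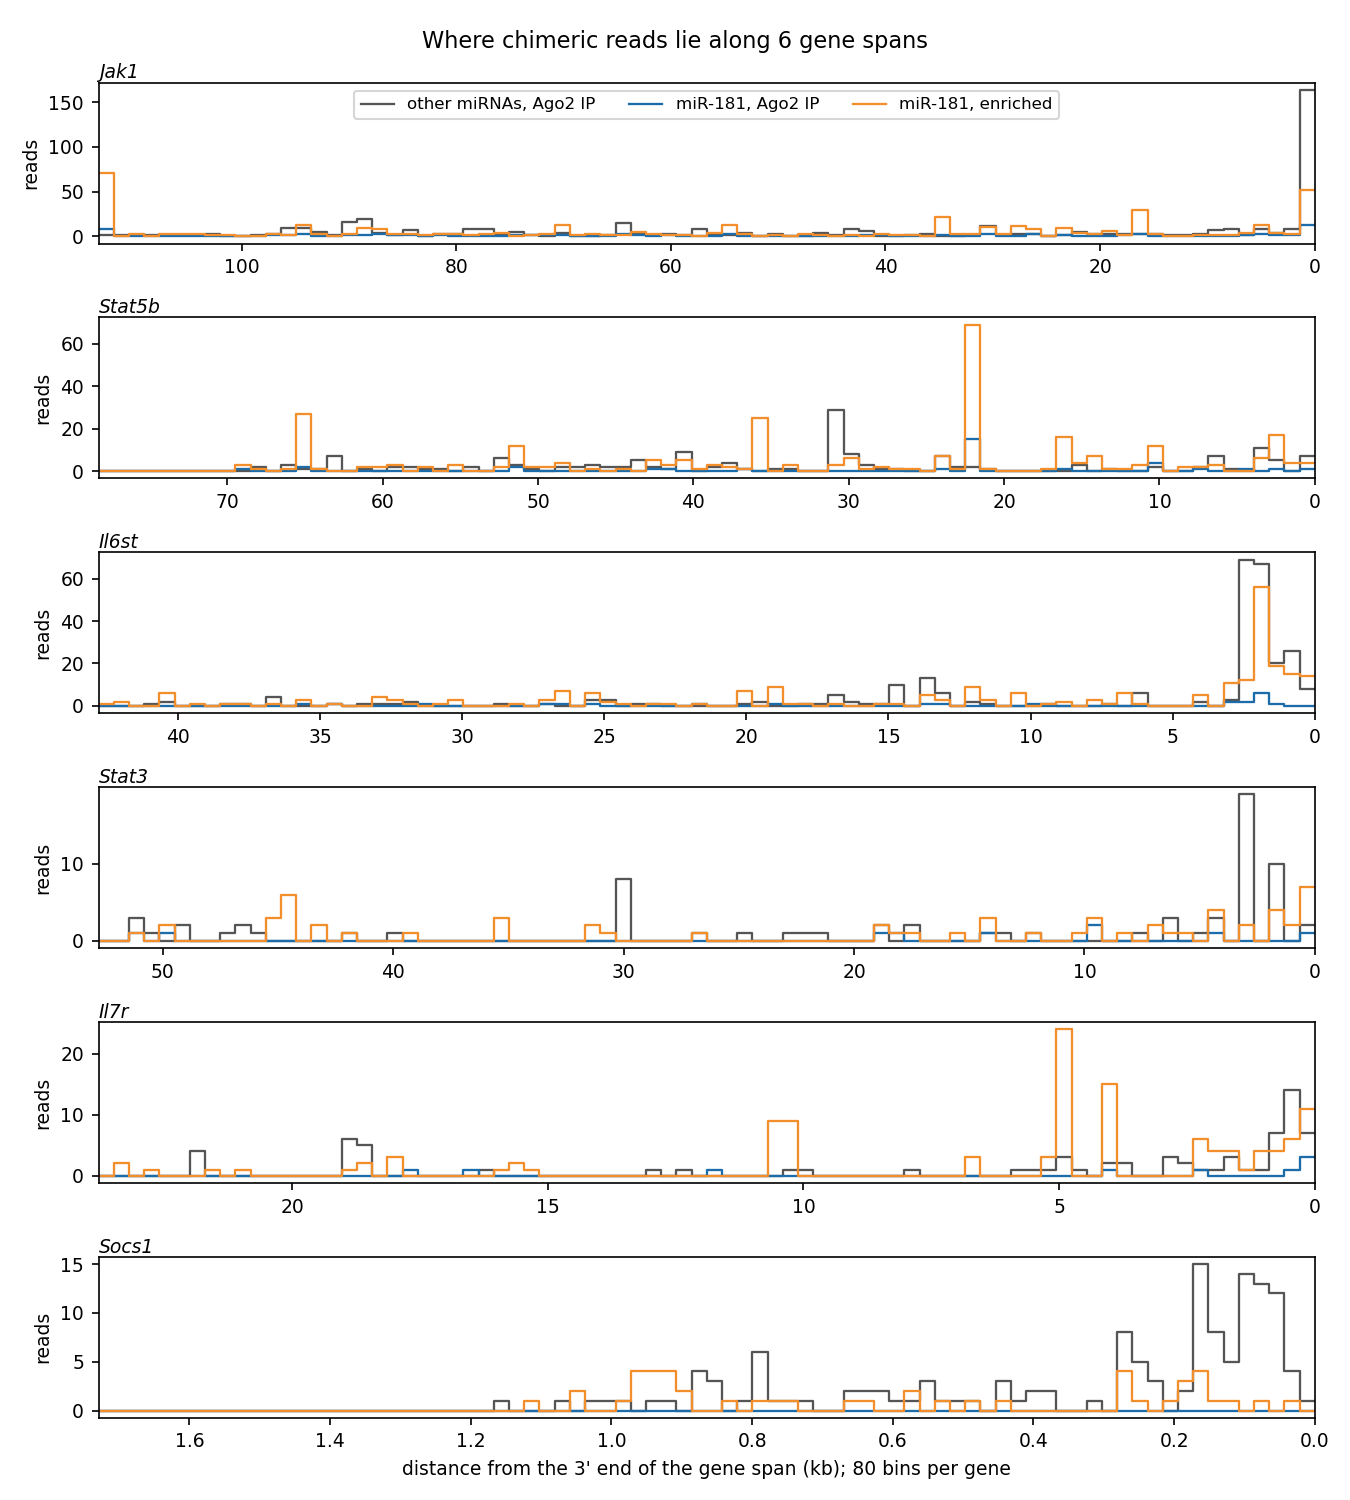
Number of chimeric reads (vertical axis) in 80 bins along the span of 6 genes against the distance from the 3′ end in kb (horizontal axis, 5′ end at the left), for other miRNAs and miR-181 in the 6 Ago2 IP libraries and for miR-181 in the 6 enriched libraries. Other miRNAs peak in the last bins of Jak1, Il6st, Stat3 and Socs1, and miR-181 peaks at the 5′ end of Jak1 and about 22 kb from the 3′ end of Stat5b.

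Of 51 other genes of the pathway, few had reads enough to test. Between genotypes, 12 were tested in each of the 2 Ago2 IP fits and after enrichment, not all the same genes, and none was called. The median log2 difference of the 12 in the Ago2 IP fit of all miRNAs was -0.04. In the wild-type enrichment 17 were tested, 1 was higher and 3 were lower, with a median of -0.08. Il10rb, a chain of the interleukin-10 and interferon-lambda receptors, rose from 8, 0 and 4 reads to 39, 31 and 23 (log2 1.64, SE 0.42, adjusted p = 0.00216, edgeR). The receptor Tnfrsf1a, which signals for tumour necrosis factor and not through Janus kinases, went from 31, 16 and 14 reads to 17, 18 and 10 (log2 -1.73, SE 0.29, adjusted p = 6.49e-06). Il21r (log2 -0.81, adjusted p = 0.0217) and the transcriptional repressor Gfi1 (log2 -1.20, adjusted p = 0.0279) were also lower. In the knockout enrichment 3 were tested, and Tnfrsf1a was lower (log2 -1.68, SE 0.63, adjusted p = 0.0436).

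Genes whose profile over the 12 libraries was most like that of the 3 members with most reads were found by Pearson correlation of log2(rpm + 10) among 1166 genes with at least 200 reads. The libraries fall into 4 groups of different depth and miR-181 share, which every gene shares, so these values describe likeness and nothing more. Jak1 was most like Rsrp1 (r = 0.953), Ctnnb1 (0.951) and Atp2b1 (0.944). Il6st was most like Rasa1 (0.959), Nedd4l (0.935) and Rnf111 (0.931), and Stat5b was most like Foxn3 (0.930), Tle4 (0.926) and Map4k4 (0.926).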

How the data were processed

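The deposited files list counts: in each of 12 libraries, as the files show, a line stands for 1 read, with its 1-nt position, strand and miRNA. Per the submitters' processing notes, the authors' tools were Bowtie2 2.4.5, STAR 2.7.10, SAMtools 1.11, bedtools 2.30.0 and UMI-tools 1.1.1, with builds mm10 and GRCm38.p6. The notes list these names without roles or settings. Positions were set on RefSeq spans of GRCm38.p6. Strands came from the RefSeq promoter table, or from the majority of reads for genes it lacks. All reads were used.

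Counts per gene and per site were tested with edgeR 4.0.16 in R 4.3.3 (quasi-likelihood test after filterByExpr, minimum count 10, and TMM scaling), over all features and the compared groups only, with Benjamini-Hochberg adjustment and calls at an adjusted p of at most 0.05. SE is the log2 difference over the root of F. The script was tested on simulated data. Shares were compared by exact permutation with scipy 1.17.1 in Python 3.11.15. The planned adjustment over 6 genes is not printed, since it runs over the list alone. Intervals (95% Wilson) and floors of 3 reads cover counting error only.

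All 9 genes are described. Named are, per gene, the 3 sites with most reads (at least 10) and the 3 most frequent miRNAs, pathway genes called in a fit (up to 5), and the 3 most alike genes of 3 members. Members, lists and sites were chosen with earlier results of these data known. Alternatives were library sizes alone, DESeq2 1.42.0, no filter, identical reads once, both strands, 50-nt joining, a replicate block and leaving out each library. Summing 2 libraries and other miRNAs alone per site were added after seeing the data. Same-numbered libraries correlated at -0.107 to 0.133, and the main fits did not take the numbers as pairs, since the labels do not pair them. Between enriched and Ago2 IP libraries, same numbers correlated at 0.00108 to 0.107 in wild type and 0.0418 to 0.0791 in the knockout. Different numbers gave -0.0870 to 0.0265 and -0.0764 to 0.0129, so that pairing in these comparisons was not settled.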

Additional observations from a re-analysis of the deposited data

How the results depend on the processing

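The knockout enriched libraries hold 86 reads of the 9 genes, most sites hold 1 read, and identical reads may repeat 1 molecule. Between genotypes in the Ago2 IP, 0 genes of the 9 were called instead of 1 with DESeq2, with no filter, with both strands, with a replicate block and without each of the 6 libraries (range 0 to 0), and the Socs1 adjusted p ran from 0.0201 to 0.419. In the wild-type enrichment 2 were called instead of 4 with DESeq2 and with no filter. In the knockout enrichment 1 was called instead of 2 with DESeq2, with the replicate block and with libraries 2 and 3 summed, and 1 to 2 when 1 library was left out. The only called member site of the Ago2 IP was lost (0 instead of 1) with DESeq2, with other miRNAs alone and without wild-type library 1, and the count was 0 to 1 over libraries left out. After enrichment 2 member sites were called instead of 0 with no filter, 1 with the libraries summed, and 0 to 1 without 1 library. The labels do not say whether equal numbers mark paired libraries. The replicate block changed no other count of members. Where the direction turned, no value had been called. Between genotypes after enrichment, Jak1 and Stat5b were 0.0344 and 0.0446 (log2) by library sizes alone, Il6st and Stat3 -0.29 and -0.18 with no filter, and leaving out 1 library gave -0.99 to 0.31 for Il6st and -0.29 to 0.76 for Stat3. In the wild-type enrichment Il7r was -0.10 by library sizes, Jak2 and Stat5b 0.12 and 0.17 with no filter, and 1 library left out gave -0.29 to 0.10 for Jak2 and -0.12 to 0.11 for Stat5b. In the knockout enrichment Stat5b was -0.15 by library sizes, -0.57 with no filter, -0.0152 with DESeq2, -0.0237 with identical reads once, -0.0169 with the block, and -0.19 to 0.18 with 1 library left out. For other miRNAs alone, 1 library left out gave -0.0679 to 0.85 for Il2rg and -0.0702 to 0.15 for Stat3. Counts over all genes moved by over 1.5 times with DESeq2 (58, 59, 613 and 8 called instead of 156, 106, 1064 and 32) and with no filter (266 instead of 106 and 14 instead of 32), and counts of sites with no filter (206 instead of 91 and 1093 instead of 132). The cause was not tested. In all, 290 log2 values of genes under an alternative kept direction and call, 30 lost the call, 5 gained it and 25 turned, and the count of 5 genes whose miR-181 shares did not overlap held under the alternatives run.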
